A study of Mus musculus with 14 samples.

Results

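Malat1, Neat1 and Kcnq1ot1 are long noncoding RNAs that stay in the nucleus, and Gas5, Snhg1, Snhg5, Snhg8 and Snhg12 are spliced long noncoding RNAs whose introns carry small nucleolar RNAs (snoRNAs). These 8 genes, 3 nuclear and 5 snoRNA hosts, were taken by symbol from the 55433 genes of the RNA table, and all 8 were measured well enough to be tested. The cells were derived from a tumor of C57BL/6 mice and were used at passages 6 to 8. One condition, sgControl, received a control guide, and the other, sgNSD3, a guide directed at Nsd3, which encodes a methyltransferase of lysine 36 on histone H3. Of 14 samples in the series, 6 were of total RNA, 3 per condition, and 8 were chromatin samples (4 for H3K36me2, 2 for H3K27me3, 2 for IgG). The labels name neither the tumor type nor whether the edited cells were a pool or 1 clone. They do not tie the 3 RNA samples per condition to separate cultures either, so the spread among those samples may be technical. The p-values below, from limma, cover no spread beyond those samples. For each gene they also draw on the variance of other genes of like level, not on its own replicates alone.

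Nuclear long noncoding RNAs are retained on chromatin or in nuclear bodies. Malat1 accumulates in nuclear speckles, where splicing factors are stored, Neat1 is the scaffold on which paraspeckles assemble, and Kcnq1ot1 is transcribed from the paternal chromosome within Kcnq1, in antisense direction, and silences neighbouring imprinted genes in cis. SnoRNA hosts work differently: the intronic snoRNAs are released from the spliced-out introns and guide chemical modification of ribosomal and spliceosomal RNA, while the spliced exons of many hosts reach the cytoplasm and are removed there by nonsense-mediated decay. Many hosts start transcription at a pyrimidine tract, as genes for ribosomal proteins do.

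At their start sites the hosts differed in letters from Malat1 and Kcnq1ot1. RefSeq promoter windows of GRCm38.p6, the mm10 assembly, matched 7 of the 8 genes, all but Neat1. The stretches below, of 100 bases each, cover 50 bases before the annotated start and 50 bases from it, on the strand of the gene. They are Malat1 at chr19:5802623-5802722 (minus strand), Kcnq1ot1 at chr7:143296498-143296597 (minus strand), Gas5 from the second of its annotated starts at chr1:161035116-161035215 (plus strand), Snhg5 at chr9:88522848-88522947 (minus strand) and Snhg12 at chr4:132308628-132308727 (plus strand). Capitals mark the letters TATA where they lie 40 to 16 bases before the start, and the longest run of C or T that touches the bases from 10 before to 20 after the start, where it has at least 6 bases. Both nuclear genes, one host with a changed level and 2 hosts without are shown so that the classes can be set side by side.
Malat1: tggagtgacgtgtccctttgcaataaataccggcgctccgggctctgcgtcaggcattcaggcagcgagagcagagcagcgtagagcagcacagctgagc
Kcnq1ot1: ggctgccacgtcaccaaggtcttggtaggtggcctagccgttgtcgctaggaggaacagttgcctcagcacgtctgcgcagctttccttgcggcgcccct
Gas5: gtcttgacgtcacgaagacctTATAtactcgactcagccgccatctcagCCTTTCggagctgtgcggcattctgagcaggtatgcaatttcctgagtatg
Snhg5: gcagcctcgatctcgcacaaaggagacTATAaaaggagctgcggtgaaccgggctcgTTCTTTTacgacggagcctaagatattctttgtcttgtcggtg
Snhg12: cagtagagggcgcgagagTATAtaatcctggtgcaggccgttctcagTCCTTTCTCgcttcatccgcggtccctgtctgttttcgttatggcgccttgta

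Counting the start base as 1 and the base before it as -1, TATA lay at position -29 in Gas5, -23 in Snhg5 and -32 in Snhg12. The runs there were CCTTTC, of 6 bases from position -1, TTCTTTT, of 7 bases from position 8, and TCCTTTCTC, of 9 bases from position -3. Snhg1 (TATA at -27, a run of 9 bases from position 5) and Snhg8 (TATA at -30, a run of 7 bases from position -1) had both as well. All 5 hosts thus held both features, Gas5 at the second of its starts and not at the first, and Malat1 and Kcnq1ot1 held neither, with a longest run of 4 bases each among those touching the bases from 10 before to 20 after the start. Among all 32851 promoter windows, 5.91% held TATA at that distance, 36.3% a run of at least 6 bases, and 2.39% both. TATA reads the same on both strands, and the run was sought on the strand of the gene only. A match is a description of letters and no match says only that they are not in the window.

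Depth was similar in the 6 RNA libraries, with recovered totals of 20294828 to 21863833 reads. The labels for the guide did not show as a loss of Nsd3 RNA. Nsd3 stood at 14568, 14402 and 14675 normalized counts (reads divided by the size factor of the library) in sgControl and at 21989, 22012 and 21837 in the libraries labelled sgNSD3, 1.51-fold higher (limma adjusted p = 5.86e-14), so each direction below refers to the label and not to a measured loss. Genes of the ribosomal RNA loci took 9.31% to 12.5% of reads in sgControl and 10.9% to 11.1% in sgNSD3, and mitochondrial genes 0.795% to 1.10% and 0.802% to 0.830%. The cells carried mesenchymal markers, summed over 8 genes at 1009540 to 1086980 normalized counts in sgControl and 1149530 to 1158840 in sgNSD3. Of these 8, 4 were higher (Col1a1, Fn1, Pdgfrb and Thy1) and 0 lower, while 2 had a log2 fold below 0. Among the latter was Col1a2, at 300518 ± 16701 and 280299 ± 2899 (SD, n = 3 each). Its conditions did not overlap, and it was not called (log2 fold -0.10, limma adjusted p = 0.0831). Epithelial markers summed to 4264 to 4826 and 3072 to 3103, mostly Krt19, with Epcam at 0 in every library and 3 of 4 tested genes lower (Krt19, Krt18 and Krt14). Immune markers summed to 245.6 to 258.4 and 249.1 to 258.1, with Cd3e and Adgre1 at 0 and none of 3 tested genes called. Endothelial markers summed to 122.8 to 147.4 and 197.4 to 238.8, with Emcn at 0 and 1 of 2 tested genes, Kdr, higher. The shares among all genes tested were 5.44% higher and 6.44% lower. The marker shifts move with the labels of the libraries, as the changes below do, and their part in those was not tested. In bulk samples, fewer cells of a type and less RNA per cell cannot be told apart.

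In the libraries labelled sgNSD3, 2 of the 3 nuclear RNAs were higher and 1 of the 5 snoRNA hosts was lower. Malat1 rose 1.14-fold and Neat1 1.27-fold, Snhg5 fell by 0.32 on the log2 scale, and the other 5 did not pass the test, which was limma on log2 values as deposited, adjusted after Benjamini and Hochberg, at a threshold of 0.05. Of the 18263 genes tested, 11.9% passed, 5.44% as higher and 6.44% as lower. The median log2 fold was 0.18 for the nuclear RNAs, -0.09 for the hosts and 0.00 for all genes tested. The conditions did not overlap for 3 of the 8 (Malat1, Gas5 and Snhg5), against 28.5% of all genes tested.

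**Figure D1:**
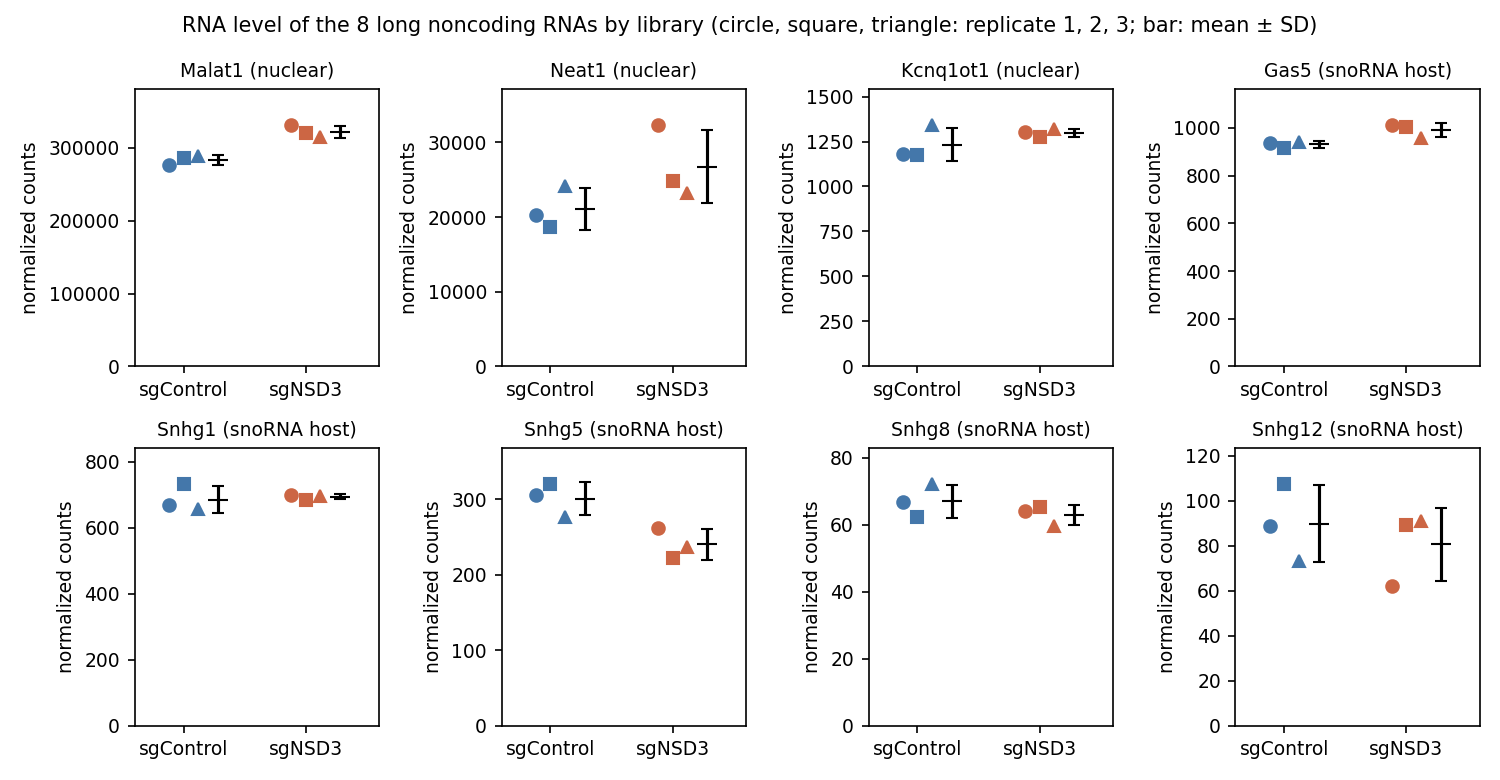
Normalized counts (y axis, from 0, a separate scale for each gene) of the 8 long noncoding RNAs in the 3 sgControl and 3 sgNSD3 libraries; circles, squares and triangles are replicates 1, 2 and 3, and bars are the mean with its SD. All sgNSD3 points lie above all sgControl points for Malat1 and Gas5 and below them for Snhg5, and the conditions overlap for the other 5 genes.

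Malat1 (ENSMUSG00000092341.3, chromosome 19, 5795690 to 5802672) is the speckle RNA and ends in the tRNA-like mascRNA, which is cut from it by RNase P. It stood at 276378, 285681 and 288431 normalized counts in sgControl 1 to 3 and at 331181, 320449 and 315118 in sgNSD3 1 to 3. Every sgNSD3 library lay above every sgControl library, and the replicates varied little, with a coefficient of variation of 2.23% and 2.54%. The means were 283497 ± 6317 and 322250 ± 8181 (SD, n = 3 each), a log2 fold of 0.18 ± 0.026 (SE, 95% interval 0.13 to 0.24, limma adjusted p = 0.000445). Malat1 took 1.29% to 1.40% of all reads in sgControl and 1.50% to 1.58% in sgNSD3. With quantile normalization the log2 fold was 0.04 and the call was lost (limma adjusted p = 0.679), whereas it was 0.19 on reads scaled to library totals without ribosomal RNA loci and mitochondrial genes (limma adjusted p = 8.56e-07).

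Neat1 (ENSMUSG00000092274.3, chromosome 19, 5824708 to 5845480) lies on the same chromosome as Malat1 and is annotated with 2 RefSeq transcripts, of which the longer builds paraspeckles. Its level was 20320, 18672 and 24121 normalized counts in sgControl and 32293, 24756 and 23187 in sgNSD3. One library set the top in each condition, sgControl 3 and sgNSD3 1, and sgControl 3 lay above sgNSD3 3, so the conditions overlapped. The means were 21038 ± 2795 and 26745 ± 4868 (SD, n = 3 each), a log2 fold of 0.34 ± 0.078 (SE, 95% interval 0.18 to 0.50, limma adjusted p = 0.00376). Neat1 varied more between replicates than Malat1, with a coefficient of variation of 13.3% and 18.2%. The SE, interval and adjusted p of Neat1 rest in part on the variance of other genes of like level. Without sgNSD3 1 the log2 fold was 0.20 (limma adjusted p = 0.059) and without sgControl 2 it was 0.26 (limma adjusted p = 0.0548), and neither passed the threshold of 0.05. A gene count cannot tell the long from the short transcript.

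Kcnq1ot1 (ENSMUSG00000101609.2, chromosome 7, 143213111 to 143296547) spans 83437 bases, all of them within the annotated span of Kcnq1. It was measured at 1181, 1176 and 1341 normalized counts in sgControl and at 1304, 1274 and 1317 in sgNSD3. The highest library of all was sgControl 3, the other sgControl libraries were the lowest, and the sgNSD3 libraries lay between. The means of 1233 ± 93.5 and 1298 ± 21.8 (SD, n = 3 each) gave a log2 fold of 0.08 ± 0.048 (SE, 95% interval -0.02 to 0.18, limma adjusted p = 0.337), which did not pass the test. Without sgControl 3 the log2 fold was 0.14 and passed (limma adjusted p = 0.041). The sources used here do not say whether counting used strand, so reads of Kcnq1ot1 and of Kcnq1 introns cannot be told apart. The Kcnq1 row itself held a mean of 5.66 normalized counts, under the minimum for a test. It was at 3.13, 1.91 and 3.04 in sgControl and at 10.3, 5.75 and 9.78 in sgNSD3.

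Gas5 (ENSMUSG00000053332.13, chromosome 1, 161034601 to 161038539), a host first known for accumulating in growth-arrested cells, was the most even host in sgControl, with a coefficient of variation of 1.57%, and second to Snhg1 in sgNSD3, at 2.85% against 1.10%. It was measured at 935.9, 914.8 and 942.8 normalized counts in sgControl and at 1012, 1003 and 959.0 in sgNSD3. All sgNSD3 libraries lay above all sgControl libraries, by a small margin between sgControl 3 and sgNSD3 3. The means of 931 ± 14.6 and 991 ± 28.3 (SD, n = 3 each) gave a log2 fold of 0.09 ± 0.046 (SE, 95% interval -0.00 to 0.18), and the test was not passed (limma adjusted p = 0.224). Gas5 overlaps Zbtb37 by 264 bases. Zbtb37, a zinc-finger gene at a mean of 981.5 normalized counts, was itself higher in sgNSD3 by a log2 fold of 0.25 (limma adjusted p = 0.00035). Reads of the shared bases cannot be told apart.

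Snhg1 (ENSMUSG00000108414.1, chromosome 19, 8723487 to 8726326), which hosts a series of box C/D snoRNAs, showed no difference beyond the spread. Its values were 667.5, 731.1 and 657.7 normalized counts in sgControl and 698.6, 684.6 and 697.0 in sgNSD3. All sgNSD3 values fell inside the sgControl range. The log2 fold was 0.02 ± 0.054 (SE, n = 3 each, 95% interval -0.09 to 0.13, limma adjusted p = 0.886), and it changed sign without sgControl 1 or sgControl 3. The gene starts 117 bases from Slc3a2, an amino acid transporter subunit.

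Snhg5 (ENSMUSG00000097195.9, chromosome 9, 88521052 to 88522897), host of U50 snoRNAs, was the one member that fell. Its level was 305.0, 319.6 and 277.1 normalized counts in sgControl and 262.5, 221.5 and 236.6 in sgNSD3. Every sgNSD3 library lay below every sgControl library, with sgControl 3 and sgNSD3 1 nearest to each other. The means were 301 ± 21.6 and 240 ± 20.7 (SD, n = 3 each), 1.25-fold lower, with a log2 fold of -0.32 ± 0.084 (SE, 95% interval -0.50 to -0.15, limma adjusted p = 0.0124). The call was lost without sgControl 2 (-0.28, limma adjusted p = 0.0732), without sgNSD3 2 (-0.27, limma adjusted p = 0.0987) and without sgNSD3 3 (-0.31, limma adjusted p = 0.0534).

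Snhg8 and Snhg12 were the least abundant and gave the widest intervals. Snhg8 (ENSMUSG00000104960.1, chromosome 3, 123507552 to 123508336), host of Snora24, stood at 66.9, 62.2 and 72.1 normalized counts in sgControl and at 64.1, 65.2 and 59.6 in sgNSD3. These overlapping values rested on 61 to 71 reads per library and gave a log2 fold of -0.09 ± 0.15 (SE, n = 3 each, 95% interval -0.40 to 0.22, limma adjusted p = 0.779). Snhg12 (ENSMUSG00000086290.9, chromosome 4, 132308678 to 132311024), which hosts Snora16a, Snora44, Snora61 and Snord99, was measured at 88.8, 107.2 and 73.1 normalized counts in sgControl and at 62.0, 89.2 and 90.9 in sgNSD3. Its conditions overlapped, with the lowest library in sgNSD3 and the highest in sgControl, and its coefficient of variation was the highest of the 8, at 19% and 20.1%. The log2 fold of Snhg12 was -0.15 ± 0.16 (SE, n = 3 each, 95% interval -0.49 to 0.18, limma adjusted p = 0.618), on 60 to 112 reads per library. A fall of the size of that of Snhg5 lies inside the intervals of both genes.

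**Figure D2:**
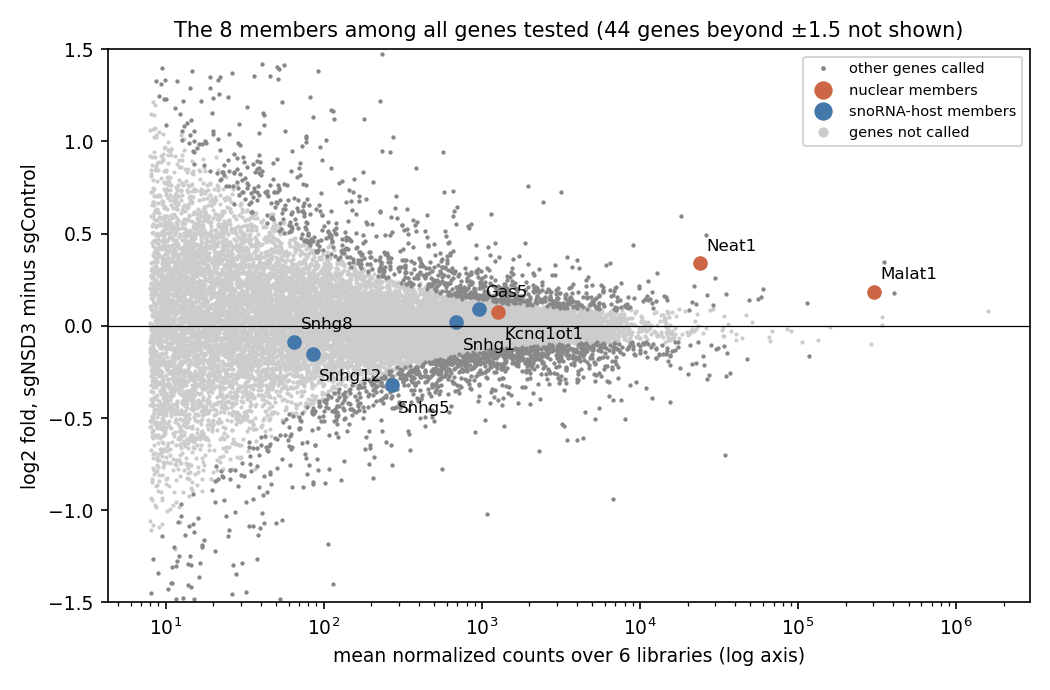
Log2 fold (y axis, sgNSD3 minus sgControl) against the mean normalized count over 6 libraries (x axis, log scale) for all 18263 genes tested, with called genes in dark grey; 44 genes beyond 1.5 on the y axis are not shown. Malat1 and Neat1 lie far to the right and above 0, Snhg5 lies at the lower edge of the uncalled genes, and the other 5 members lie among the uncalled genes.

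Per kilobase of gene span, introns included, the levels in sgControl ran from Malat1 at 40598 ± 905 normalized counts per kb to Kcnq1ot1 at 14.8 ± 1.12 (SD, n = 3). Between them came Neat1 at 1013 ± 135, Snhg1 at 241 ± 14.0, Gas5 at 236 ± 3.70, Snhg5 at 163 ± 11.7, Snhg8 at 85.4 ± 6.28 and Snhg12 at 38.2 ± 7.27 normalized counts per kb. In that order only Snhg1 and Gas5 had overlapping ranges of 1 SD. The order in sgNSD3 had the same ends, Malat1 at 46148 ± 1172 and Kcnq1ot1 at 15.6 ± 0.261, and there Gas5 at 252 ± 7.18 stood above Snhg1 at 244 ± 2.70, with the ranges of 1 SD overlapping. The span of a spliced host holds introns that give few exon reads, so the hosts are understated on this scale relative to the unspliced Malat1.

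The distance between the classes was then taken within each library, as the mean log2(normalized count + 1) of the 3 nuclear RNAs minus that of the 5 hosts. It was 6.18, 6.09 and 6.41 in sgControl 1 to 3 and 6.66, 6.45 and 6.44 in sgNSD3 1 to 3. All sgNSD3 libraries lay above all sgControl libraries, with sgControl 3 close under sgNSD3 3. The means of 6.23 ± 0.17 and 6.52 ± 0.12 (SD, n = 3 each) differed by 0.29, with the nuclear mean higher by 0.20 and the host mean at -0.09. This is a description with no test, since the members were chosen with earlier results of these data known. This difference between the conditions was 0.35 without the most abundant member of each class, Malat1 and Gas5, and lay between 0.22 and 0.38 when 1 library was left out. Neat1 (log2 fold 0.34) and Snhg5 (-0.32), which changed most in their classes, were kept throughout. The difference without Neat1 and Snhg5 was not computed. Within conditions the libraries also differed: sgControl 3 had the highest Malat1, Neat1, Kcnq1ot1, Gas5 and Snhg8 and the lowest Snhg1, Snhg5 and Snhg12 of its condition. In sgNSD3 1, Malat1, Neat1, Gas5, Snhg1 and Snhg5 were the highest and Snhg12 the lowest of that condition.

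**Figure D3:**
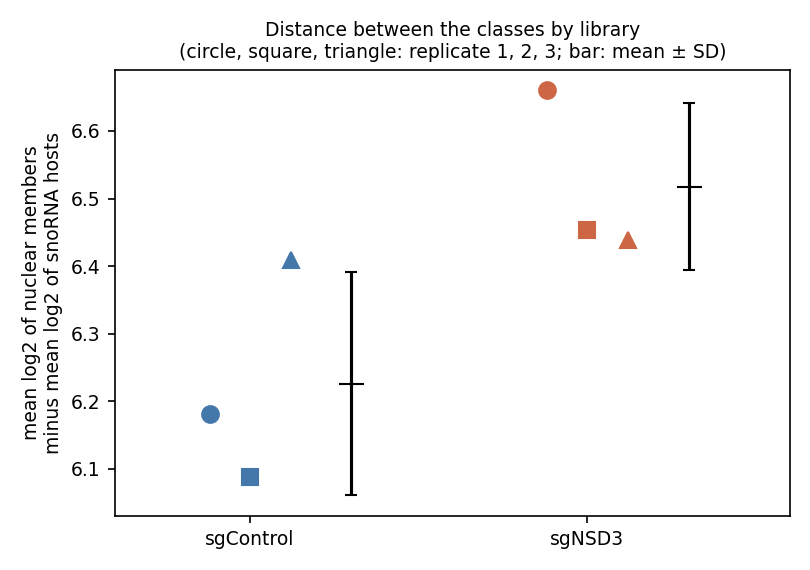
Mean log2(normalized count + 1) of the 3 nuclear RNAs minus that of the 5 snoRNA hosts (y axis, log2 units, not from 0) in each library; symbols are replicates 1, 2 and 3 and bars the mean with its SD. The sgNSD3 libraries, at 6.44 to 6.66, lie above the sgControl libraries, at 6.09 to 6.41.

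Other long noncoding RNAs of both classes were read from lists, beside 5.44% higher and 6.44% lower over all genes tested. Of 15 other snoRNA hosts tested, 1 was higher and 0 were lower, with a median log2 fold of -0.09 and 9 of 15 below 0. The one was Snhg14, the long imprinted transcript that carries the Snord115 and Snord116 clusters, at 410.5, 443.1 and 456.7 normalized counts in sgControl and 520.9, 497.6 and 511.3 in sgNSD3. Its conditions did not overlap (1.17-fold, log2 fold 0.22 ± 0.061, limma adjusted p = 0.0177). Of 13 other nuclear or regulatory long noncoding RNAs tested, 3 were higher and 0 lower, with a median log2 fold of 0.11 and 12 of 13 above 0. Meg3, a maternally expressed imprinted RNA, went from 10518 ± 478 to 11774 ± 208 normalized counts (SD, n = 3 each; 1.12-fold, limma adjusted p = 0.000658). Mir99ahg, the host of the miR-99a cluster, went from 949 ± 52.1 to 1145 ± 61.4 (1.21-fold, limma adjusted p = 0.000453), and Pvt1, a neighbour of Myc, from 425 ± 19.3 to 498 ± 39.7 (1.17-fold, limma adjusted p = 0.0271). For none of these 3 did the conditions overlap, which held for 28.5% of all genes tested. The 3 were named because they were called, so this adds no separate result.

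**Figure D4:**
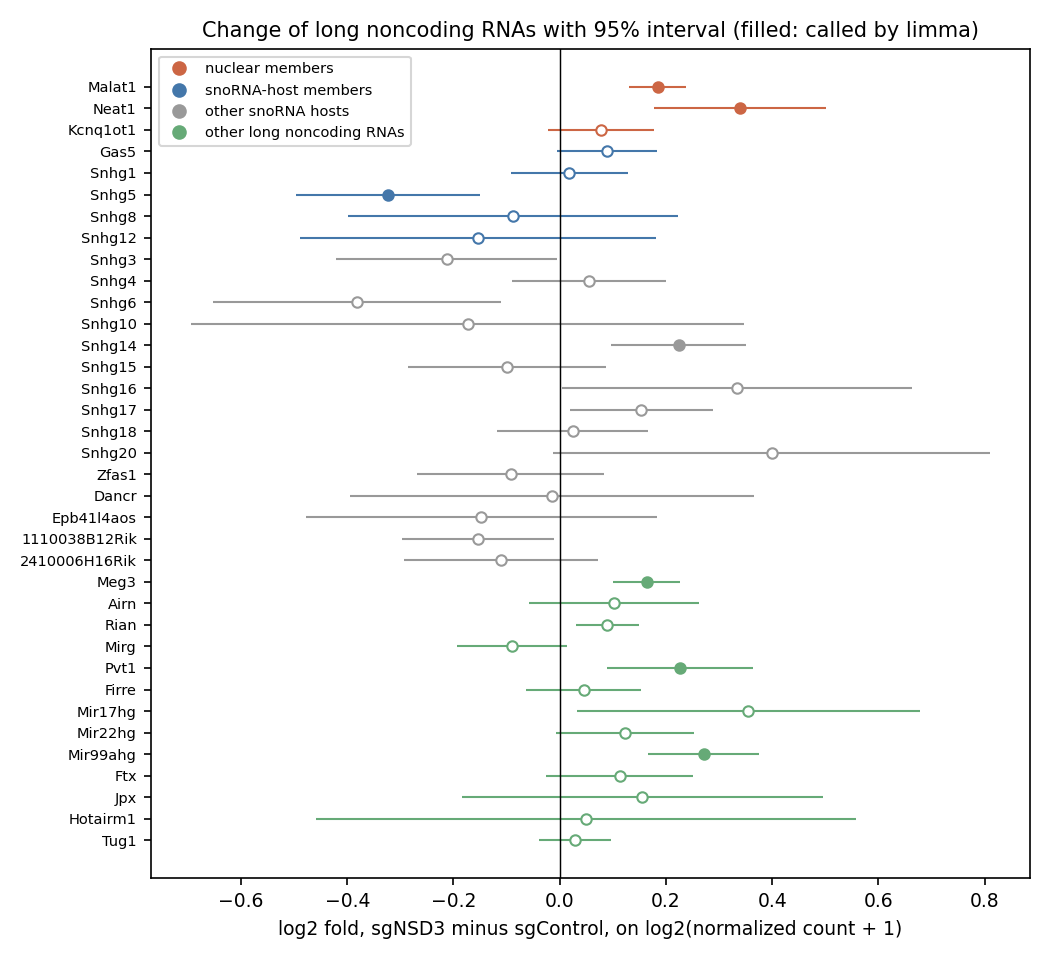
Log2 fold (x axis, sgNSD3 minus sgControl, on log2(normalized count + 1)) with its 95% interval for the 8 members, 15 other snoRNA hosts and 13 other nuclear or regulatory long noncoding RNAs; filled points passed the limma test. Malat1, Neat1, Snhg14, Meg3, Pvt1 and Mir99ahg are filled to the right of 0, and Snhg5 is the only filled point to the left.

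No read was counted for the snoRNAs of the hosts that could be looked up. RefSeq places 23 snoRNAs within the 5 hosts, 8 in Gas5, 8 in Snhg1, 2 in Snhg5, 1 in Snhg8 and 4 in Snhg12. Of these, 7 had a row in the RNA table under the same symbol, among them Snord47 in Gas5 and Snord22 in Snhg1, and were at 0 reads in all 6 libraries. Of 17 snoRNAs listed by name for the hosts, 9 had a row, which adds Snord50a and Snord50b for Snhg5, and these were at 0 reads as well. The others were not analysed here. The sources used here do not describe the preparation of the RNA libraries, so the host values stand for the host transcripts alone and say nothing of the mature snoRNAs.

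Genes that host snoRNAs in their introns but code for protein were read next. Of 26 protein-coding snoRNA hosts, 7 (26.9%) were lower and 0 higher, with a median log2 fold of -0.06. Over all genes tested, 6.44% were lower and 5.44% higher. Rps3, a protein of the small ribosomal subunit, went from 7094 ± 512 to 5733 ± 40.1 normalized counts (SD, n = 3 each; log2 fold -0.30 ± 0.037, limma adjusted p = 2.08e-06), and Rpsa, the laminin-binding ribosomal protein, from 30011 ± 733 to 24953 ± 359 (log2 fold -0.27 ± 0.026, limma adjusted p = 1.91e-07). Rps13 had a log2 fold of -0.29 (limma adjusted p = 0.0122) with 1 sgControl library inside the sgNSD3 range, and Rpl12 one of -0.16 (limma adjusted p = 0.000415). Of 41 ribosomal protein genes, a part of the family, 17 were lower and 0 higher, with a median log2 fold of -0.10 and 35 of 41 below 0. The lower genes Rps3, Rps13, Rpl5 and Rpl12 are in both lists, and Rps6 (-0.27) and Rps24 (-0.27) were the next furthest. Rpsa and Rpl23a, lower among the hosts, are also ribosomal protein genes but are not among the 41. Of the lower hosts, only Hspa8 (log2 fold -0.15) is not a ribosomal protein gene. Genes with near-identical processed copies, as those for ribosomal proteins have, can lose or gain reads in counting, so these values are uncertain. A further list held 16 genes outside the ribosomal protein list, most but not all for translation, taken as having messages that start with a pyrimidine tract. The letters at their starts were not checked here. Of these 16, 1 was lower (Npm1, a nucleolar chaperone, log2 fold -0.13, limma adjusted p = 0.00406). Eef1b2, Eef2, Tpt1 and Rack1 are also among the protein-coding hosts.

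Of 18 genes for snoRNP proteins and their assembly factors, 2 were lower (11.1%, against 6.44% of all genes tested) and 0 higher (against 5.44%). Both belong to the H/ACA particle, which guides pseudouridylation: Gar1 went from 200.4 ± 13.3 to 161.5 ± 8.02 normalized counts (SD, n = 3 each; log2 fold -0.31, limma adjusted p = 0.0365) and Nhp2 from 549 ± 17.1 to 479 ± 8.61 (log2 fold -0.20, limma adjusted p = 0.0275). Of 19 genes of nonsense-mediated decay, 1 was higher, Upf2, which bridges the Upf proteins, from 917 ± 57.8 to 1063 ± 12.4 (log2 fold 0.22, limma adjusted p = 0.00346). Neither condition overlapped the other for these 3 genes, named because they were called, against 28.5% of all genes tested without overlap.

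For the proteins of the nuclear bodies few calls were made, beside 5.44% higher and 6.44% lower over all genes tested. Of 22 nuclear speckle genes, 1 was higher and 0 lower, with 18 of 22 above 0 and a median log2 fold of 0.05; it was Srsf11, a splicing factor, at 1754 ± 45.6 and 2004 ± 30.4 normalized counts (SD, n = 3 each; log2 fold 0.19, limma adjusted p = 0.000682). Of 20 paraspeckle protein genes, 1 was lower, Hnrnpul1, an RNA-binding protein (log2 fold -0.11, limma adjusted p = 0.03), and 14 of 20 lay above 0, with a median log2 fold of 0.03. Of 11 genes of RNase P and tRNA end processing, which mature the end of Malat1, 1 was lower, Pop4, an RNase P subunit (log2 fold -0.24, limma adjusted p = 0.0126).

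In the genomic surroundings of the nuclear RNAs, 1 of 11 genes near Malat1 and Neat1 on chromosome 19 was higher, Pcnx3, a membrane protein gene, at 3183 ± 187 and 3533 ± 65.1 normalized counts (SD, n = 3 each; log2 fold 0.15, limma adjusted p = 0.00624), and their median log2 fold was -0.05. In the imprinted domain of Kcnq1ot1, 7 of 12 genes were tested and 1 was lower, Tssc4, at 692 ± 41.7 and 610 ± 20.3 normalized counts (SD, n = 3 each; log2 fold -0.18, limma adjusted p = 0.0366). All 7 had a log2 fold below 0, with a median of -0.09. Over all genes tested, 5.44% were higher and 6.44% lower. Kcnq1 itself was not tested, at a mean of 5.66 normalized counts, and every sgNSD3 library lay above every sgControl library. None of the 8 members had a row among the 22470 gene bodies of the chromatin table. In the authors' deposited table the gene body of Kcnq1, which encloses Kcnq1ot1, had an H3K27me3 score of 0.114, higher than 92.1% of gene bodies, and H3K36me2 scores of 0.0771 and 0.181, higher than 51.6% and 73.2%. The headers of that table name no condition, so no direction between sgControl and sgNSD3 can be read from these scores.

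Lastly, the genes whose levels followed each member most closely over the 6 libraries were taken from 10097 named genes with a mean of at least 100 normalized counts, by Pearson's r of log2(normalized count + 1), as a description. All pairs share the 6 libraries and their depth, and with 6 points and so many genes the highest r is always near 1. They were Ptprb (0.998) and Ap4e1 (0.996) for Malat1, Megf11 (0.990) and Muc6 (0.988) for Neat1, and Ifit2 (0.996) and Smim10l1 (0.993) for Kcnq1ot1. For the hosts they were Klhl7 (0.992) and Susd6 (0.985) for Gas5, Klhl9 (0.991) and Zkscan3 (0.988) for Snhg1, Hspb2 (0.995) and Arl3 (0.992) for Snhg5, Nus1 (0.992) and Champ1 (0.990) for Snhg8, and Anxa7 (0.987) and Arfgef2 (0.987) for Snhg12. Ptprb, a receptor phosphatase, went from 389 ± 26.1 to 529 ± 37.5 normalized counts (SD, n = 3 each), and Arl3, a small GTPase of cilia, from 176 ± 15.6 to 126 ± 18.1. No gene was named for more than 1 member.

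**Figure D5:**
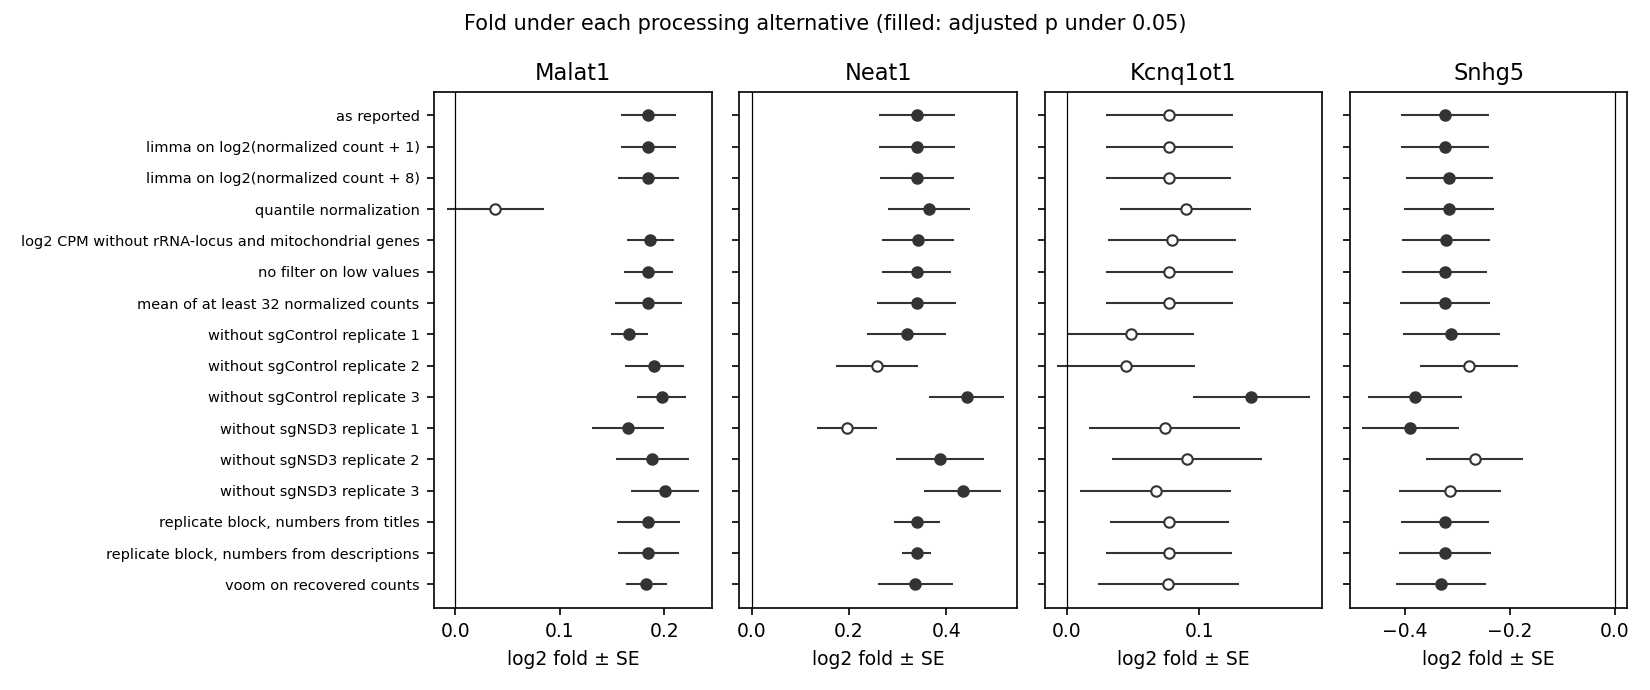
Log2 fold with its SE (x axis, a separate scale for each gene) of Malat1, Neat1, Kcnq1ot1 and Snhg5 as reported and under 15 other settings; filled points have an adjusted p under 0.05. Malat1 loses its call with quantile normalization, Neat1 without sgControl 2 or sgNSD3 1 and Snhg5 without sgControl 2, sgNSD3 2 or sgNSD3 3, and Kcnq1ot1 gains one without sgControl 3.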

How the data were processed

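RNA values were deposited by the authors as log2 numbers; per the file headers and the values themselves, they are variance-stabilised output of DESeq2. HISAT2, featureCounts and DESeq2 with mm10 are listed without versions, per the submitters' processing notes. Inverting that scale, whose floor of 8.45 stands for 0 reads, gave whole reads recovered for 100% of values (within 0.05). Chromatin scores for gene bodies were deposited by the authors with no condition named. There were 0 other value columns.

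Genes with a mean of at least 8 normalized counts (18263 of 55433) were tested with limma 3.58.1 in R 4.3.3 (eBayes with trend) on the log2 values as deposited. The variance of each gene was thereby moderated toward that of genes of like level. For log2 folds, SEs and intervals limma was run on log2(normalized count + 1), where changes of low genes are understated. Because the deposited unit was log2, the count tests planned as alternatives were not run, and limma's voom on recovered reads was added after seeing the data. Replicate numbers follow the titles; for sgNSD3 1, 2 and 3 the columns bear 3, 1 and 2. The members and the gene lists were chosen with earlier results of these data known. Named genes are the 8 members, Nsd3, up to 4 called genes per list with the largest log2 fold, and 2 most similar genes per member. Markers at 0, genes overlapping a member, and Col1a2, Rpl5, Rpl23a and Hspa8 were named after their values were seen.

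Counts were simulated at the real means and depths, with the median dispersion of 0.000472 for every gene, and 18273 genes were tested. The changed genes were drawn from those with a mean of at least 32 normalized counts. Of these, 27.5% of 51 changed 1.1-fold were recovered, 80.4% of 51 changed 1.25-fold, 89.4% of 47 changed 1.5-fold and 100% of 51 changed 2-fold. These shares do not cover genes under that mean or more variable ones such as Neat1. Members and lists were read from the fit over all genes. Positions and promoters came from RefSeq for GRCm38.p6. Other settings were another pseudocount (8), quantile normalization, CPM without ribosomal RNA loci and mitochondrial genes, no filter, a minimum of 32, each library left out, and the replicate number as a block.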

Additional observations from a re-analysis of the deposited data

How the results depend on the processing

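Leaving out 1 library at a time, the genes called higher numbered 639 to 998 (994 with all libraries) and those called lower 709 to 1166 (1176); the lowest counts came without an sgNSD3 library. Members called higher then numbered 1 to 3 and members called lower 0 to 1. Over the same omissions the log2 fold ranged from 0.20 to 0.44 for Neat1, from -0.39 to -0.27 for Snhg5, from 0.045 to 0.14 for Kcnq1ot1, from -0.011 to 0.066 for Snhg1, which was -0.00 without sgControl 1 and -0.011 without sgControl 3, and from -0.29 to 0.023 for Snhg12, which was 0.023 without sgNSD3 1. With quantile normalization Malat1 had a log2 fold of 0.038 and 1 member was called higher; the cause was not tested. Gas5 and Snhg8 kept their direction and stayed uncalled under all 15 other settings. The difference between the conditions in the distance between the classes stayed between 0.22 and 0.38. Same-numbered deviations correlated at 0.046, 0.016 and -0.013 by title and at -0.0663, -0.00654 and -0.0397 by description. So few libraries cannot settle whether the numbers pair the samples. A fit with the title number as a replicate block called 1119 genes higher and 1333 lower, and one with the description number 919 and 1086. Under the block Malat1 (adjusted p = 0.00166 and 0.00192), Neat1 (8.69e-07 and 6.86e-08) and Snhg5 (0.0062 and 0.0185) had the same call. Snhg8 and Snhg12 rest on 60 to 112 reads per library, and a fall as large as that of Snhg5 lies inside their intervals.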
